A study of Mus musculus with 12 samples.

Results

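The genes of the nuclear pore and of the receptors that carry cargo through it were examined in stimulated splenic B cells with and without *Pdap1*. Members were the protein coding genes of the count table whose symbols are those of nucleoporins (*Nup* genes, *Tpr*, *Ndc1*, *Pom121*, *Rae1*, *Sec13*, *Seh1l* and *Aaas*), of import receptors (importins, karyopherins and transportins, without *Kpna7*) or of export receptors (exportins and *Cse1l*). This gave 51 of the 55536 genes in the table, with 28 in the pore, 16 in the import and 7 in the export group. The rule itself used symbols and no expression value, but it was set with earlier results of these data known. RNA was sequenced from 3 control and 3 Pdap1-deficient mice of the C57BL/6 strain, whose cells were kept in culture for 48 h, 1 part with LPS-IL-4, which leads to switching to IgG1, and 1 part with LPS-BAFF-TGFβ, which leads to switching to IgG2b. The 12 libraries thus form 4 groups of 3. Pdap1-deficient mice were Pdap1F/F with Cre recombinase made in cells of the B lineage, and control mice carried the same Cre allele, so Cre is shared by both genotypes. The labels give neither age nor sex of the mice, and name the CH12 B cell line where the study describes primary splenic B cells.

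Nuclear pores are large assemblies that span the nuclear envelope. An outer ring of Y-shaped complexes and an inner ring form the scaffold, membrane proteins anchor it, and nucleoporins with phenylalanine-glycine repeats fill the channel and carry the filaments on the cytoplasmic face and the basket on the nuclear face. Importin α adaptors bind the classical import signal and travel with importin β, other members of the importin β family bind their cargo directly, and exportins take cargo out. The small GTPase Ran sets the direction, since it is loaded with GTP in the nucleus by *Rcc1* and hydrolyses it in the cytoplasm with the help of *Rangap1*. Stimulated B cells enlarge and divide, which calls for new pores and for transport of ribosomal subunits, RNA and transcription factors.

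The libraries held between 4579793 and 69500640 counts, and members took between 1.05% and 1.46% of them. *Pdap1*, the targeted gene, had between 23.0 and 29.9 CPM, the count relative to the TMM-scaled library total, in Pdap1-deficient libraries and between 80.3 and 199 CPM in controls, although the deletion leaves part of the gene in place. B cell markers were high in all libraries, with a summed level of 4 markers (*Cd79a*, *Cd79b*, *Ms4a1* and *Pax5*) between 1703 and 2776 CPM. Some libraries stood apart. That of control mouse 1 with LPS-BAFF-TGFβ was the deepest (69500640 counts), with 3.38% of its counts on *CT010467.1*, and that of Pdap1-deficient mouse 1 with LPS-BAFF-TGFβ had 9.90% of its counts on *Lars2*, where the gene with the most counts took between 0.910% and 1.96% in the other 10. Pdap1-deficient mouse 2 had the highest summed level of 5 myeloid markers, with 232 CPM in LPS-IL-4 and 435 CPM in LPS-BAFF-TGFβ cultures. Pdap1-deficient mouse 3 had 33.0 and 76.2 CPM of the same markers, while the other 8 libraries had between 5.13 and 23.6 CPM. In the lead was *Lyz2*, the lysozyme gene of macrophages and granulocytes, with up to 278 CPM, and none of the 5 myeloid markers was at 0 in any group. Summed T cell markers were highest in Pdap1-deficient mouse 2 as well (16.8 and 7.64 CPM, at most 5.87 CPM elsewhere), and 3 NK cell markers summed to at most 0.876 CPM, with *Klrb1c* or *Ncr1* at 0 in 3 of the 4 groups. Summed levels of 4 erythroid markers were between 18.4 and 23.6 CPM in Pdap1-deficient mice 2 and 3 and at most 11.0 CPM in the other 8 libraries. With LPS-IL-4, the B cell markers were between 2572 and 2776 CPM in Pdap1-deficient mice and between 2439 and 2458 CPM in controls. The part of these values in the results was not tested.

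Of the 51 members, 49 were tested in each comparison, and each of these had at least 68 counts in every library. The exceptions were *Nup43* of the outer ring, which is listed at 0 in all 12 libraries, and *Nup62cl*, a paralog of *Nup62* with 9 counts in total. Levels were divided by the combined length of all annotated exons of each gene, which can exceed that of the transcripts present. In control cells with LPS-IL-4 they spanned a wide range within each group. Highest among pore genes were *Tpr* of the nuclear basket with 89.0 ± 5.24 CPM per kb (SD, n = 3), *Nup153* of the same basket with 88.4 ± 5.15 and *Nup85* of the outer ring with 65.1 ± 2.04 CPM per kb. *Tpr* and *Nup153* did not differ from each other beyond the spread between mice, while *Nup50*, the other basket gene, was lower with 40.7 ± 0.862 CPM per kb. Lowest were *Nup210l*, a paralog of the membrane nucleoporin *Nup210*, with 2.82 ± 0.425, *Pom121* with 6.79 ± 0.680 and the inner ring gene *Nup35* with 9.89 ± 0.899 CPM per kb.

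Among import receptors, *Kpnb1*, which encodes importin β1, was highest with 182 ± 4.64 CPM per kb, followed by *Ipo5* with 130.5 ± 4.34 and *Ipo7* with 85.2 ± 5.36 CPM per kb, both of which carry ribosomal proteins among other cargo. *Ipo8* (7.18 ± 0.247), *Ipo13* (7.87 ± 0.204) and *Ipo4* (9.37 ± 0.301 CPM per kb) were lowest. Of the importin α genes, *Kpna3* and *Kpna2* led with 53.8 ± 1.70 and 52.0 ± 3.53 CPM per kb, which is within their spread. Among export receptors, *Xpo1*, the exportin of proteins with leucine-rich signals, had 138 ± 9.46, *Cse1l*, which returns importin α to the cytoplasm, 100.4 ± 3.68, and *Xpot*, the exportin of tRNA, 37.2 ± 0.686 CPM per kb. At the other end were *Xpo5*, the exportin of microRNA precursors, with 29.9 ± 0.192, *Xpo6*, the exportin of actin, with 17.0 ± 0.390, and *Xpo7* with 9.98 ± 0.250 CPM per kb. These ranks depend on the annotated exon length. Before the division, *Xpo6* had a mean of 288 CPM, above *Xpot* (225) and *Xpo5* (205), and *Ipo8* had 113 CPM, above *Ipo4* (43.8). The plot of levels per length shows that importin β1 and *Xpo1* lie well above the pore genes.

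**Figure D1:**
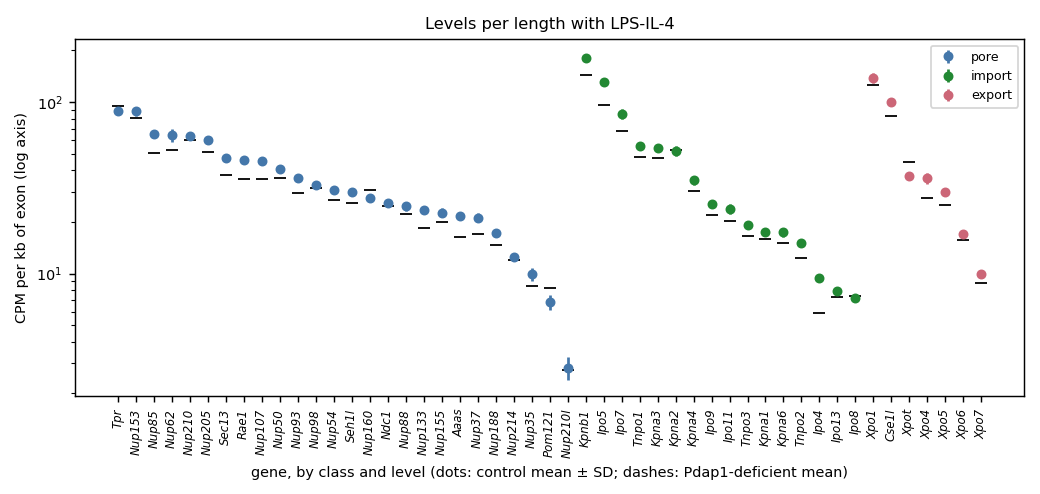
Level per exon length with LPS-IL-4 in CPM per kb (vertical log axis) of the 49 members tested, ordered by level within pore, import and export genes. Dots and bars are the mean and SD of 3 control mice, and short dashes the mean of 3 Pdap1-deficient mice. *Kpnb1* (182 CPM per kb) and *Xpo1* (138 CPM per kb) stand highest, and most dashes lie below their dots.

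Some members share sequence with other annotated genes, so that their counts depend on how reads were assigned, and their values are uncertain. About 61.5% of the exon sequence of *Kpna2*, compared in stretches of 50 bases, also occurs in *Gm10184*, which had 11675 counts over the 12 libraries, and 36.7% of that of *Nup35* in *Gm4353*, which had 3320 counts. The estimated share was 14.0% for *Xpot* with the pseudogene *Gm7389*, 14.0% for *Nup54* with *Gm15790* and 10.5% for *Tnpo1* with *Gm6493*. For *Pom121* with *Nsun5* the estimate was 22.2%, but their exons overlap, on opposite strands, over 665 of the 5580 exon bases of *Pom121*. The estimate pools all transcripts of a gene and can thus be too high. *Ipo4* overlaps the annotated readthrough gene *Gm49378* on the same strand over 2583 of its 4669 exon bases, and *Gm49378* is listed at 0 in all 12 libraries.

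With LPS-IL-4, the question was whether loss of *Pdap1* alters these genes. The members lay lower in Pdap1-deficient cells as a group, but by little each. Of 49 members, 43 had a log2 fold change (Pdap1-deficient minus control) below 0 and 6 above, with a median of -0.22, whereas over all 15074 genes tested 47.3% were below 0 and the median was 0.021. The medians were -0.21 for 26 pore genes, -0.22 for 16 import genes and -0.20 for 7 export genes. Only 1 member, *Ipo4*, passed an adjusted p of 0.05 in the quasi-likelihood test of edgeR, and it was lower. Beside it, 2.12% of all genes were called lower and 2.79% higher, so in this fit the number of calls among members was near that of the background. With DESeq2, and without Pdap1-deficient mouse 1 or 2, the share of members called lower was above that of all genes, as given below. When any other mouse was left out, none was called. In 26 members all 3 Pdap1-deficient mice lay below all 3 control mice, beside 16.1% of all genes. In 0 members did all lie above, beside 15.1% of all genes. An unadjusted p under 0.05 was found for 18 members, all lower, beside 11.7% of all genes lower and 12.1% higher at that p. That count was 9 without control mouse 1, 9 without control mouse 2, 12 without control mouse 3 and 32 when length and GC content of the genes entered as an offset, again all lower, and without Pdap1-deficient mouse 2 it was 19 lower and 4 higher. The share of all genes at that p in these other runs is not given here, so their counts cannot be set against a background. With the offset, 46 members were below 0, beside 50.1% of all genes. Since whole cultures were sequenced, fewer cells of a type and less RNA per cell cannot be told apart.

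*Ipo4* encodes importin 4, a receptor for histones and ribosomal proteins (ENSMUSG00000002319, chromosome 14, 55625400 to 55635957 on the minus strand of GRCm38). It measured 42.9, 43.0 and 45.4 CPM in control mice 1 to 3 and 30.0, 26.8 and 25.6 CPM in Pdap1-deficient mice 1 to 3. All Pdap1-deficient mice lay well below all controls, and mouse 2 was not the lowest (log2 fold change -0.68, SE 0.11, adjusted p = 0.00916). The call was lost when 1 of 4 mice was left out, with an adjusted p of 0.0598, 0.0735 and 0.0722 without control mouse 1, 2 or 3 and 0.0562 without Pdap1-deficient mouse 3, at log2 fold changes between -0.71 and -0.65. It held without Pdap1-deficient mouse 1 or 2. With LPS-BAFF-TGFβ the gene had 44.4, 37.8 and 31.2 CPM in controls and 25.6, 26.4 and 25.6 CPM in Pdap1-deficient mice, again without overlap, and did not pass the test (log2 fold change -0.54, SE 0.15, adjusted p = 0.289).

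The next import receptor was *Ipo5*, with 769, 813 and 767 CPM in controls and 646, 480.1 and 611 CPM in Pdap1-deficient mice with LPS-IL-4. The groups did not overlap and Pdap1-deficient mouse 2 was far the lowest (log2 fold change -0.44, SE 0.13, adjusted p = 0.0819). *Kpnb1* had 1162, 1219.9 and 1208 CPM in controls against 1045, 836 and 954 CPM, with the same mouse lowest and no overlap (log2 fold change -0.35, adjusted p = 0.121). Of the 11 genes of the importin β family, 10 were below 0, from *Ipo4* at -0.68 to *Ipo13* at -0.12, and only *Ipo8* was above at 0.035. Of the 5 importin α genes 4 were below 0, between -0.22 and -0.14, and *Kpna2* stood at 0.010. *Kpna2* and *Ipo8* turned below 0 in 8 and 4 of the 15 alternatives.

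Among pore genes, the smallest p-values with LPS-IL-4 were those of *Aaas*, a nucleoporin of the cytoplasmic face, and *Nup133* of the outer ring. *Aaas* measured 58.6, 62.8 and 60.9 CPM in controls and 52.0, 41.0 and 44.6 CPM in Pdap1-deficient mice (log2 fold change -0.41, SE 0.12, adjusted p = 0.0708). *Nup133* measured 161, 165 and 167 CPM and 135, 116 and 136 CPM (log2 fold change -0.36, SE 0.10, adjusted p = 0.0763). Neither gene overlapped between the groups, and mouse 2 was the lowest Pdap1-deficient mouse in both. The outer ring had the lowest median of the pore subgroups, -0.34 over 7 tested genes, with 6 below 0 between -0.37 (*Nup85*) and -0.22 (*Seh1l*) and *Nup160* above at 0.15. The 5 inner ring genes lay between -0.30 and -0.19, the 4 of the cytoplasmic face between -0.41 and -0.057, and the 3 of the central channel between -0.30 and -0.076. The 3 membrane nucleoporins were between -0.092 and 0.26 and the 3 basket genes between -0.18 and 0.077. None of these subgroups but the importin β family held a gene past the threshold.

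Of 7 exportins, 6 were below 0 with LPS-IL-4. *Xpo4* had 397, 404 and 352 CPM in controls and 317, 235 and 333 CPM in Pdap1-deficient mice (log2 fold change -0.39, SE 0.14, adjusted p = 0.134). *Xpo5* had 205, 207 and 205 CPM and 189, 147 and 178 CPM (log2 fold change -0.27, SE 0.12, adjusted p = 0.193). Controls were tightly grouped for *Xpo5*, Pdap1-deficient mouse 2 was the lowest library for both genes, and the groups did not overlap. *Xpot* was above 0, with 226, 228 and 219.9 CPM in controls and 327, 199 and 288 CPM in Pdap1-deficient mice. Mice 1 and 3 were above all controls but mouse 2 was below them (log2 fold change 0.27, SE 0.17, adjusted p = 0.368). Its pseudogene *Gm7389* had 15.1, 16.5 and 16.1 CPM in controls and 22.1, 12.7 and 18.8 CPM in Pdap1-deficient mice, with mouse 2 again the lowest.

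**Figure D2:**
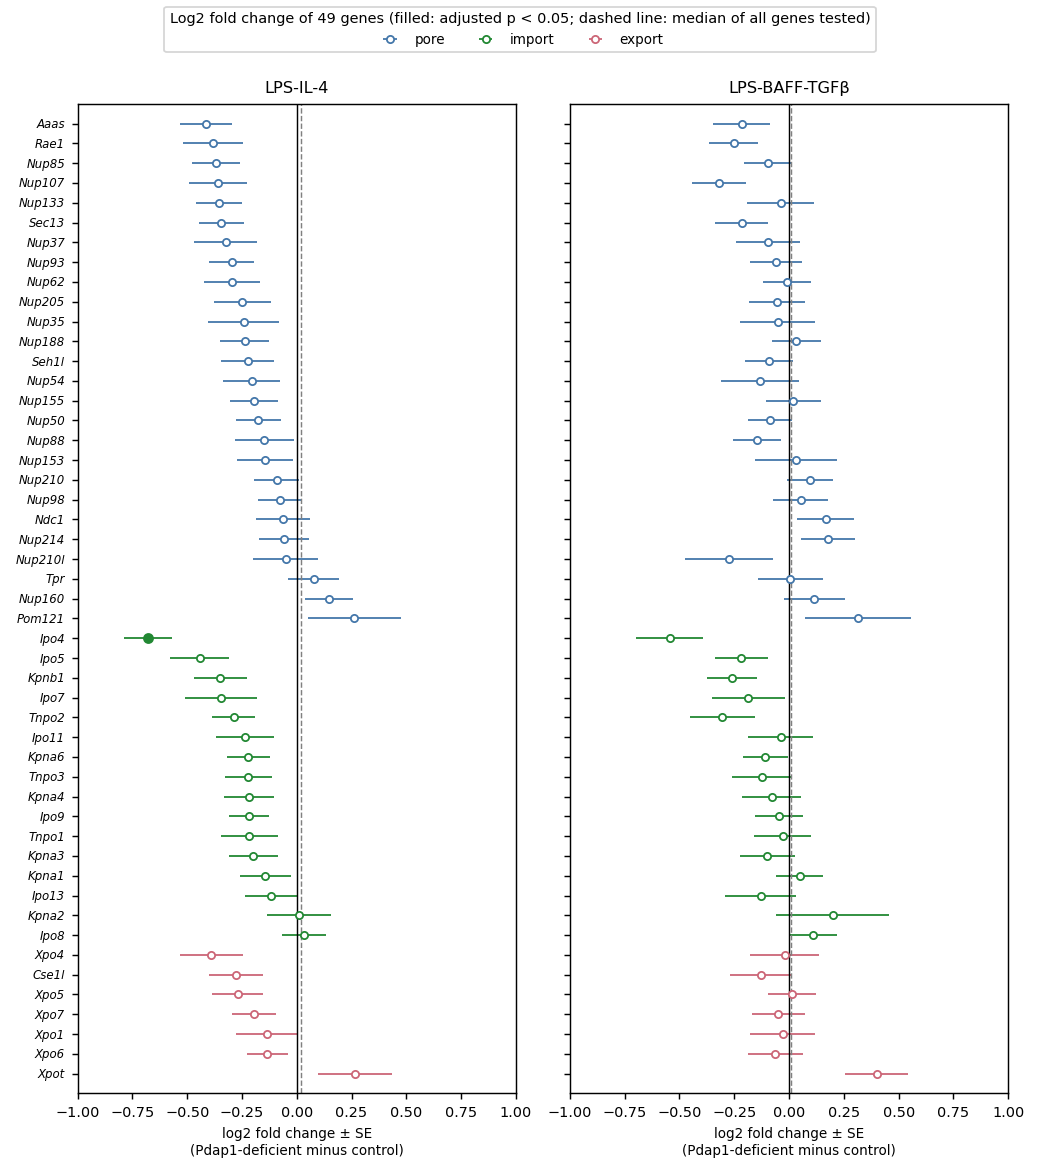
Log2 fold change, Pdap1-deficient minus control, with its SE (horizontal axis) of 49 members with LPS-IL-4 (left) and LPS-BAFF-TGFβ (right), grouped as pore, import and export genes. A filled dot marks an adjusted p under 0.05 and the dashed line the median of all genes tested. With LPS-IL-4, 43 members lie below 0 and *Ipo4* (-0.68) is the filled dot, and with LPS-BAFF-TGFβ 34 lie below 0 and none is filled.

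The mice did not contribute equally. Set against the mean of the controls with LPS-IL-4, the median over the 49 members on the log2 scale was, in the order of mouse number, 0.0073, 0.029 and -0.038 for controls and -0.096, -0.41 and -0.15 for Pdap1-deficient mice. Thus each Pdap1-deficient mouse was below each control, and mouse 2 was the farthest, in pore (-0.40), import (-0.41) and export genes (-0.43) alike. In 38 of 49 members this mouse was the lowest of the 6 libraries, beside 29.9% of all genes. Over all genes its median difference was 0.024. It was also the library with the most myeloid marker RNA among the LPS-IL-4 cultures (232 CPM) and with the most T cell marker RNA (16.8 CPM over 5 markers, 0.270 to 5.87 CPM in controls), whose part in the result was not tested. Without this mouse, 43 members were still below 0, with a median of -0.13 beside 0.0058 for all genes, and 6 members were called lower (*Ipo4*, *Ipo5*, *Kpnb1*, *Nup133*, *Nup85* and *Sec13*) and 2 higher (*Xpot* at 0.46 and *Nup160* at 0.23), beside 4.49% of all genes called lower and 5.09% called higher. Without Pdap1-deficient mouse 1, 9 members were called lower, beside 5.32% of all genes, and 0 without control mouse 1, 2 or 3 or Pdap1-deficient mouse 3, beside 0.585%, 0.440%, 0.505% and 1.05% of all genes called in either direction. DESeq2 called 7 members, all lower (*Aaas*, *Ipo4*, *Ipo5*, *Kpnb1*, *Nup133*, *Nup85* and *Sec13*), beside 5.09% of all genes called lower and 4.28% called higher.

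**Figure D3:**
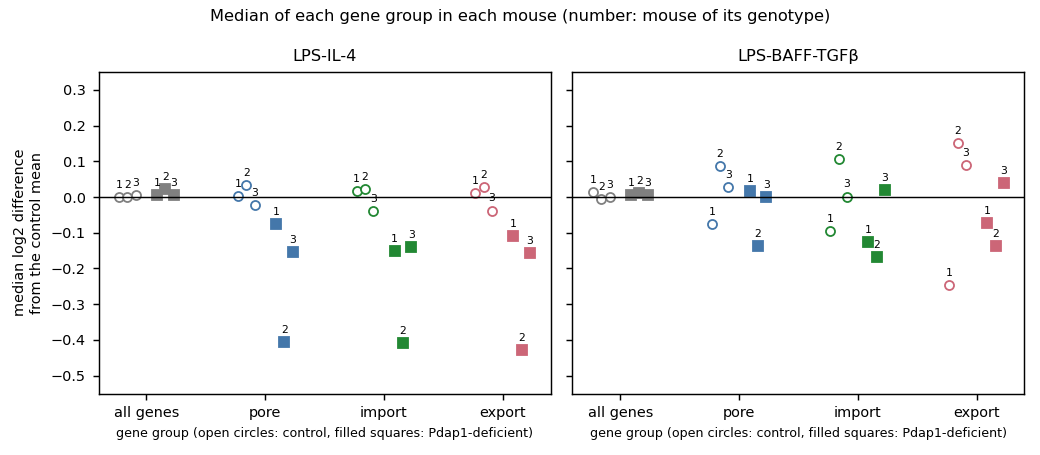
Median difference from the control mean on the log2 scale (vertical axis) in each mouse, over all genes tested and over pore, import and export genes, with LPS-IL-4 (left) and LPS-BAFF-TGFβ (right). Open circles are control and filled squares Pdap1-deficient mice, and the digit beside each is the number of the mouse. With LPS-IL-4 the squares of the 3 gene groups lie below the circles, Pdap1-deficient mouse 2 lowest, and with LPS-BAFF-TGFβ squares and circles overlap.

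With LPS-BAFF-TGFβ, 0 members were called by edgeR, beside 0.00710% of all genes called lower and 0.455% called higher. DESeq2 called 0 as well, beside 0.285% called lower and 0.818% called higher. The edgeR test did not call the targeted gene *Pdap1* there either, although its groups did not overlap (log2 fold change -2.33, SE 0.36, adjusted p = 0.0929). The absence of calls in this comparison is thus no sign that members were unchanged. Of 49 members 34 were below 0 and 15 above, with a median of -0.057 beside 0.0066 and 49.1% below 0 over all 14079 genes tested. In the main fit, an unadjusted p under 0.05 was found for 4 lower and 1 higher member, beside 5.28% and 5.27% of all genes. With the offset for length and GC content the median was -0.12 with 40 below 0, beside 51.2% of all genes. With that offset 12 were lower at an unadjusted p under 0.05, a count for which the share of all genes is not given here. In 8 members all Pdap1-deficient mice were below all controls, beside 8.88% of all genes, and in 0 above, beside 9.97%. All 8 were also without overlap and lower with LPS-IL-4. Thus 8 of 49 members were lower without overlap in both stimulations, beside 4.84% of all genes tested in both. Of all genes, 1250 were lower without overlap with LPS-BAFF-TGFβ and 668 in both stimulations. The 8 members were *Ipo4*, *Ipo5*, *Kpnb1*, *Kpna6*, *Aaas*, *Rae1*, *Nup107* and *Sec13*, named here because of these values. The cultures came from the same mice, so the stimulations are not independent of each other. The medians were -0.054 for pore, -0.10 for import and -0.029 for export genes. Of the importin β family 10 of 11 genes were below 0 (median -0.13) and of the outer ring 6 of 7 (median -0.096), whereas the 3 membrane nucleoporins were above 0, between 0.094 (*Nup210*) and 0.31 (*Pom121*).

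*Nup107* of the outer ring had 169, 170.2 and 150.3 CPM in controls and 126, 115 and 149 CPM in Pdap1-deficient mice with LPS-BAFF-TGFβ (log2 fold change -0.32, SE 0.12, adjusted p = 0.432). *Rae1*, an mRNA export factor at the pore, had 95.8, 102 and 96.6 CPM and 86.0, 73.1 and 86.4 CPM (log2 fold change -0.25, SE 0.11, adjusted p = 0.473). In both, the lowest library was that of Pdap1-deficient mouse 2, and the mice did not overlap between genotypes. *Kpnb1* had 1102, 1083 and 1054 CPM in controls and 918, 807 and 965 CPM in Pdap1-deficient mice (log2 fold change -0.26, SE 0.12, adjusted p = 0.473). Among exportins, *Xpot* had 181, 221 and 193 CPM in controls and 268, 215 and 297 CPM in Pdap1-deficient mice (log2 fold change 0.40, SE 0.14, adjusted p = 0.402). *Cse1l* had 416, 561 and 508 CPM and 450.0, 405 and 496 CPM (log2 fold change -0.13, SE 0.14, adjusted p = 0.741). The groups overlapped for both exportins, and in *Xpot* it was Pdap1-deficient mouse 2 that lay among the controls.

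Relative to the control mean on the log2 scale, the median over the 49 members with LPS-BAFF-TGFβ was, in the order of mouse number, -0.11, 0.11 and 0.036 for controls and -0.035, -0.14 and 0.018 for Pdap1-deficient mice. The genotypes overlapped. Control mouse 1, the deepest library, was the lowest control in each of the 3 gene groups, and lowest of 6 libraries in 19 members, beside 26.7% of all genes, while Pdap1-deficient mouse 2 was lowest in 21, beside 20.1% of all genes. Without control mouse 1 the median over members was -0.13 with 41 below 0, and without control mouse 2 it was -0.0027 with 25 below 0. Without Pdap1-deficient mouse 2 it was -0.025 with 29 below 0 and without mouse 3 of that genotype -0.10 with 37, so the size of the difference rested on which mice were included. The part of library depth and of myeloid RNA (435 CPM in Pdap1-deficient mouse 2) in these values was not tested. The genotype by stimulation term, which tests whether the genotype difference itself differs between the stimulations, was past the threshold for 0 members, beside 0% of all 15794 genes, and for 0 members by DESeq2, beside 0.00317% of all genes lower and 0.0158% higher. At an unadjusted p under 0.05 edgeR had 0 members, beside 3.17% of all genes lower and 1.61% higher. The fitted term was above 0 in 43 members (median 0.13), whereas 55.7% of all genes were below 0 (median -0.042), but without the libraries of control mouse 1 with LPS-BAFF-TGFβ and Pdap1-deficient mouse 2 with LPS-IL-4, a choice made after the data were seen, it was above 0 in 26 and its median was 0.0075.

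The stimulations were then compared within each genotype. Relative to LPS-IL-4, 1 member was called higher and 6 were called lower with LPS-BAFF-TGFβ in control cells, beside 9.93% of all genes called higher and 8.22% called lower. *Ndc1* rose, and *Nup62*, *Nup98*, *Kpna1*, *Kpna6*, *Xpo5* and *Xpo6* fell. In all, 43 of 49 members were below 0, with a median log2 fold change (LPS-BAFF-TGFβ minus LPS-IL-4) of -0.18 beside 0.035 for all genes, and in 21 all 3 cultures with LPS-BAFF-TGFβ lay below all 3 with LPS-IL-4, beside 18.2% of all genes, and in 1 above, beside 19.0%. All 7 outer ring genes, 5 inner ring genes, 5 importin α genes and 7 exportins were below 0, with medians of -0.20, -0.26, -0.31 and -0.18. In Pdap1-deficient cells, *Ndc1* rose and *Nup62* fell, beside 6.64% of all genes called higher and 6.93% called lower, and 32 members were below 0, with a median of -0.051 beside -0.0040 for all genes. The cultures did not overlap in 7 members that were lower and 3 that were higher, beside 13.8% and 14.8% of all genes. Of the outer ring, 3 of 7 genes were below 0 (median 0.015), of the inner ring 4 of 5 (median -0.055) and of the exportins 5 of 7 (median -0.058). The direction over members rested on Pdap1-deficient mouse 1, without which 21 of 49 were below 0 and the median was 0.022. Without control mouse 1 with LPS-BAFF-TGFβ and Pdap1-deficient mouse 2 with LPS-IL-4, 39 were below 0, beside 48.7% of all genes, and the median was -0.15. In that run 16 instead of 4 were lower at an unadjusted p under 0.05, a count for which the share of all genes is not given here.

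*Nup62* encodes the nucleoporin with phenylalanine-glycine repeats at the centre of the channel (ENSMUSG00000109511, chromosome 7, 44816088 to 44830812, plus strand). In control mice 1 to 3 it measured 172, 176 and 202 CPM with LPS-IL-4 and 128, 108 and 109 CPM with LPS-BAFF-TGFβ (log2 fold change -0.67, SE 0.12, adjusted p = 0.00111). In Pdap1-deficient mice 1 to 3 it measured 176, 143 and 131 CPM and 115, 112 and 113 CPM (log2 fold change -0.40, SE 0.12, adjusted p = 0.0379). It was lower with LPS-BAFF-TGFβ in each of the 6 mice, and the stimulations did not overlap in either genotype. The difference between genotypes in this response was not past the threshold (log2 fold change 0.27, SE 0.17, adjusted p = 0.983). In control cells the call held under each alternative, while in Pdap1-deficient cells it was lost when any mouse but control mouse 1 was left out, with adjusted p between 0.0618 and 0.338, the highest without Pdap1-deficient mouse 1. *Nup62* overlaps 97 exon bases of *Il4i1* on the same strand, whose level was between 3.60 and 5.29 CPM with LPS-IL-4 and between 0.730 and 1.86 CPM with LPS-BAFF-TGFβ, and 82 of *Atf5* on the opposite strand.

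*Ndc1*, which encodes a membrane protein that anchors the pore in the envelope (ENSMUSG00000028614, chromosome 4, 107367784 to 107416346, plus strand), was the 1 member called higher. It had 129, 129.7 and 121 CPM with LPS-IL-4 and 150.1, 195 and 180.5 CPM with LPS-BAFF-TGFβ in control mice (log2 fold change 0.47, SE 0.12, adjusted p = 0.0165). In Pdap1-deficient mice it had 129, 103 and 133 CPM and 200.5, 177 and 209 CPM (log2 fold change 0.68, SE 0.12, adjusted p = 0.00175). Every mouse had more with LPS-BAFF-TGFβ, with no overlap. Among controls mouse 1 had the smallest rise, and the call was lost without control mouse 2 or 3 (adjusted p = 0.138 and 0.157), while in Pdap1-deficient cells it held under each alternative. The other membrane nucleoporins, *Nup210* and *Pom121*, had log2 fold changes of 0.052 and -0.058 in controls and 0.22 and -0.032 in Pdap1-deficient cells, with none past the threshold, and *Pom121* turned above 0 in 2 alternatives in controls and 5 in Pdap1-deficient cells. *Aaas*, named here because of its values, had 52.0, 41.0 and 44.6 CPM with LPS-IL-4 and 60.5, 61.7 and 55.1 CPM with LPS-BAFF-TGFβ in Pdap1-deficient mice, higher in all 3 without overlap but not past the threshold (log2 fold change 0.36, SE 0.12, adjusted p = 0.0693).

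**Figure D4:**
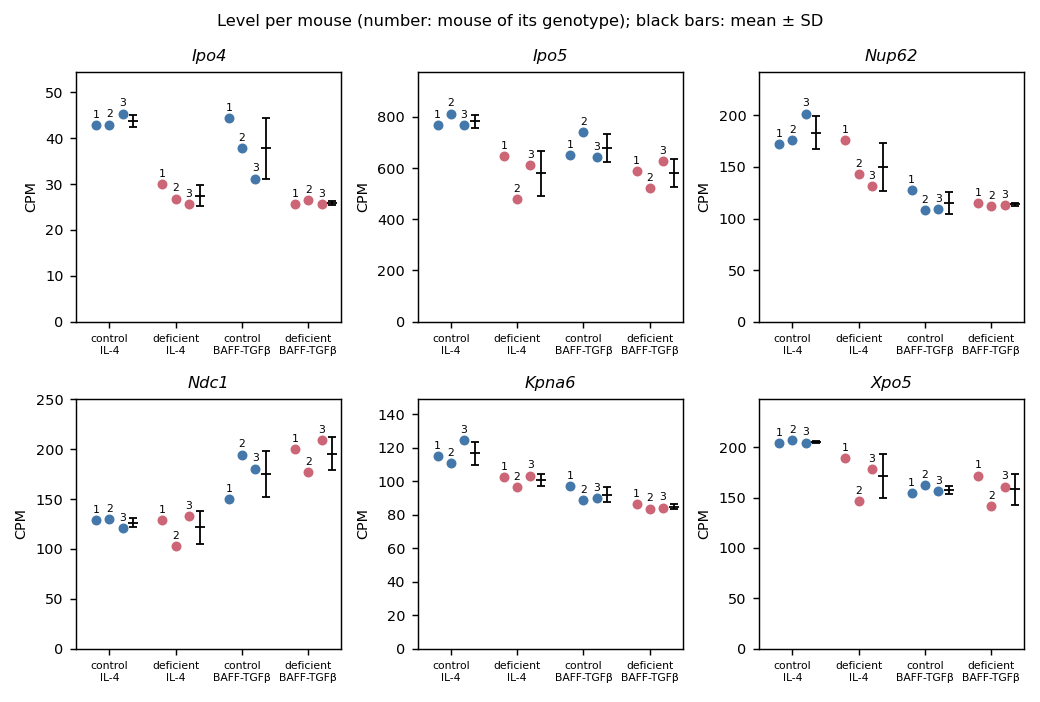
Level in CPM (vertical axis, from 0) of 6 members in each mouse, by genotype and stimulation. Points are mice with their number, blue for control and red for Pdap1-deficient, and black bars are the mean and SD of 3 mice. *Ipo4* is lower in Pdap1-deficient mice in both stimulations, and *Nup62* is lower and *Ndc1* higher with LPS-BAFF-TGFβ in both genotypes.

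*Kpna6* and *Kpna1*, importin α adaptors, fell in control cells. *Kpna6* (ENSMUSG00000003731, chromosome 4, 129643980 to 129672767) had 115, 111 and 124 CPM with LPS-IL-4 and 97.0, 88.7 and 89.9 CPM with LPS-BAFF-TGFβ (log2 fold change -0.34, SE 0.086, adjusted p = 0.0125). *Kpna1* (ENSMUSG00000022905, chromosome 16, 35978750 to 36037131) had 154, 149.6 and 141 CPM and 107, 122 and 117 CPM (log2 fold change -0.36, SE 0.10, adjusted p = 0.0257). Each control mouse had less of both with LPS-BAFF-TGFβ, without overlap. In Pdap1-deficient mice *Kpna6* had 102, 96.6 and 103 CPM and 86.4, 83.6 and 84.3 CPM, again without overlap but not past the threshold (log2 fold change -0.25, SE 0.087, adjusted p = 0.0799). *Kpna1* had 139.6, 116 and 149 CPM and 119.8, 114 and 122 CPM there, with mouse 2 low in both stimulations (log2 fold change -0.18, SE 0.10, adjusted p = 0.313). All 5 importin α genes were below 0 in both genotypes, between -0.36 and -0.24 in controls and between -0.25 and -0.092 in Pdap1-deficient cells. *Ipo13* had 33.8, 31.7 and 26.4 CPM with LPS-IL-4 and 25.8, 31.2 and 21.7 CPM with LPS-BAFF-TGFβ in Pdap1-deficient mice, the largest difference among import receptors there after *Kpna6* (log2 fold change -0.23, SE 0.14, adjusted p = 0.342).

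Among exportins, *Xpo5* (ENSMUSG00000067150, chromosome 17, 46202782 to 46243598, plus strand) fell in control cells from 205, 207 and 205 CPM to 154, 162 and 157 CPM (log2 fold change -0.38, SE 0.11, adjusted p = 0.0217). In Pdap1-deficient mice it had 189, 147 and 178 CPM and 172, 142 and 161 CPM, which overlapped (log2 fold change -0.11, SE 0.11, adjusted p = 0.594). The difference between genotypes in this response did not pass the threshold (log2 fold change 0.27, SE 0.15, adjusted p = 0.983). *Xpo6* (ENSMUSG00000000131, chromosome 7, 126101715 to 126200501, minus strand) had 291, 280.4 and 293 CPM with LPS-IL-4 and 194, 248 and 247 CPM with LPS-BAFF-TGFβ in controls, with mouse 1 lowest (log2 fold change -0.33, SE 0.10, adjusted p = 0.0372). It had 265, 271 and 257 CPM and 215, 218 and 224 CPM in Pdap1-deficient mice, where all 3 were lower without overlap (log2 fold change -0.27, SE 0.10, adjusted p = 0.100). *Xpo4* was the exportin with the largest difference in controls, 397, 404 and 352 CPM against 224, 332 and 298 CPM, but mouse 1 was far below the others and the gene did not pass the threshold (log2 fold change -0.44, SE 0.16, adjusted p = 0.0692).

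*Nup98*, a nucleoporin with phenylalanine-glycine repeats that also binds Rae1 (ENSMUSG00000063550, chromosome 7, 102119398 to 102210176, minus strand), had 415, 425 and 405 CPM with LPS-IL-4 and 289, 370.3 and 346 CPM with LPS-BAFF-TGFβ in control mice (log2 fold change -0.31, SE 0.10, adjusted p = 0.0445). In Pdap1-deficient mice it had 407, 381 and 401 CPM and 348, 335 and 354 CPM (log2 fold change -0.20, SE 0.10, adjusted p = 0.249). The stimulations did not overlap in either genotype, and control mouse 1 had the lowest value. Leaving out control mouse 1 ended the calls of *Nup98*, *Kpna1*, *Xpo5* and *Xpo6* (adjusted p between 0.0885 and 0.200) and left 3 of the 7 calls (beside 14.2% of all genes called in either direction), and without control mouse 2 or 3 the call of *Nup62* was the 1 left (10.3% and 9.41%). Without Pdap1-deficient mouse 1, which enters through the shared spread, 4 were left (16.2%), without mouse 3 of that genotype 5 (14.9%), and without mouse 2 there were 12 (21.7%), beside 18.2% with all libraries. With the mouse as a block, 11 members were called in controls, beside 10.6% of all genes called lower and 11.0% called higher, namely the same 7 and *Kpna3*, *Nup93*, *Nup133* and *Xpo4*, all lower. By mouse, the median over members of the difference between stimulations was, in the order of mouse number, -0.32, -0.13 and -0.13 for controls and -0.13, 0.018 and -0.010 for Pdap1-deficient mice.

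**Figure D5:**
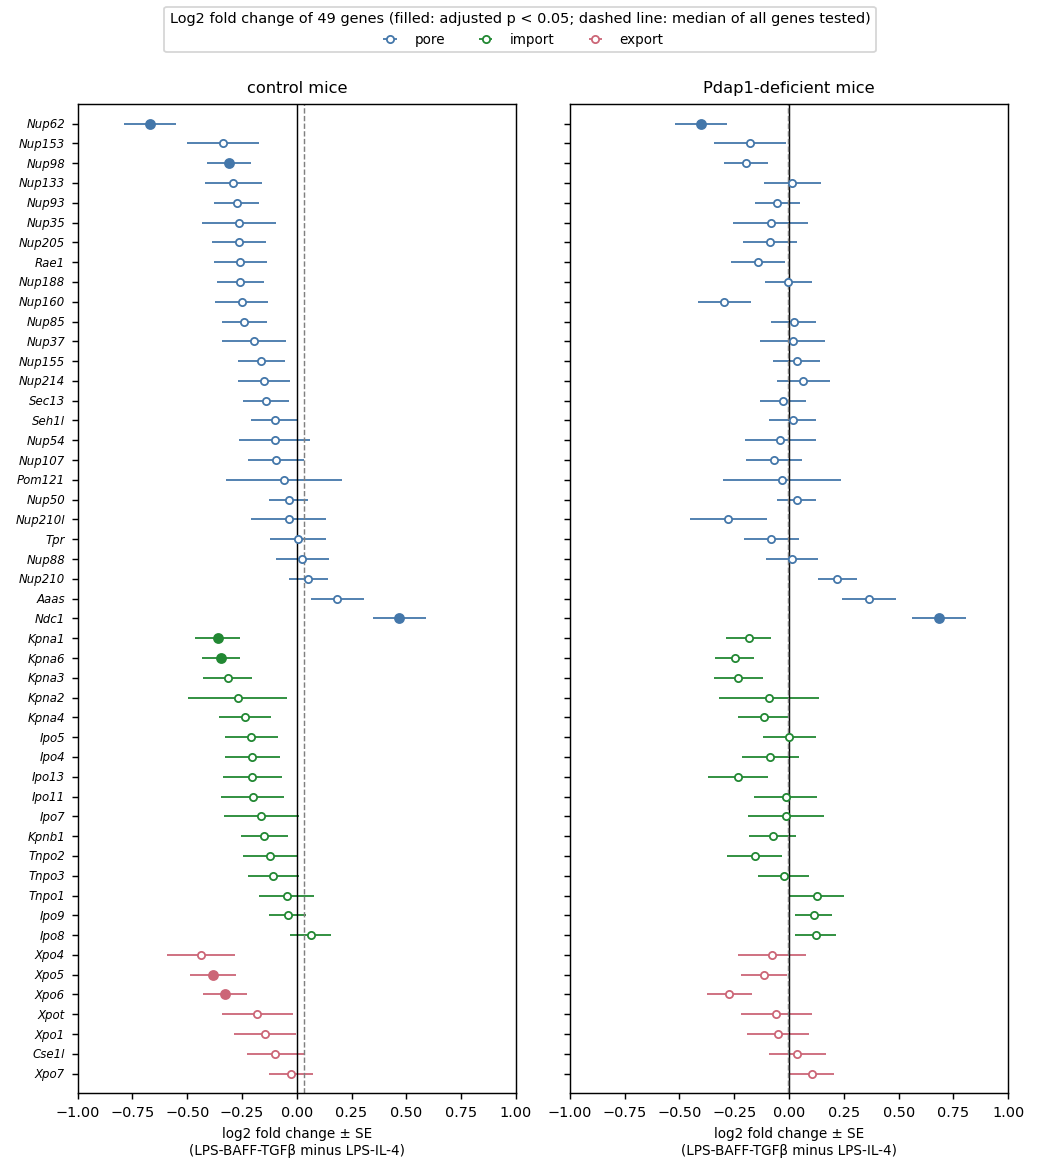
Log2 fold change, LPS-BAFF-TGFβ minus LPS-IL-4, with its SE (horizontal axis) of 49 members in control (left) and Pdap1-deficient mice (right), grouped as pore, import and export genes. A filled dot marks an adjusted p under 0.05 and the dashed line the median of all genes tested. *Nup62* (-0.67 and -0.40) and *Ndc1* (0.47 and 0.68) are filled in both genotypes.

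The sequence before the start of 3 of the genes that fell in control cells is shown. RefSeq gives a start for each with a stretch before it that is free of annotated exons. This held for *Nup98* as well, with exon-free stretches of 150 and 31 bases. Those stretches had no match to the motifs searched and are not shown. Sequences are from GRCm38.p6, 5′ to 3′ on the strand of the gene, and capitals mark matches to the motifs searched. *Nup62* is shown at chr7:44815838-44816087 (plus strand), *Xpo5* at chr17:46202646-46202781 (plus strand) and *Xpo6* at chr7:126200502-126200751 (minus strand).
Nup62: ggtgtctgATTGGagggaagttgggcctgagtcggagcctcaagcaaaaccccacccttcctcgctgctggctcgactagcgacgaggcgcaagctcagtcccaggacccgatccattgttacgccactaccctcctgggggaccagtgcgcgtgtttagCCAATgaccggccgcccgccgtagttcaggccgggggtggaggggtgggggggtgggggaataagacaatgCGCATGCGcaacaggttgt
Xpo5: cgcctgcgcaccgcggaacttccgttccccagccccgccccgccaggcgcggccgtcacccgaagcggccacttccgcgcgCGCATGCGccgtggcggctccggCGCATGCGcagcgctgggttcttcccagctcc
Xpo6: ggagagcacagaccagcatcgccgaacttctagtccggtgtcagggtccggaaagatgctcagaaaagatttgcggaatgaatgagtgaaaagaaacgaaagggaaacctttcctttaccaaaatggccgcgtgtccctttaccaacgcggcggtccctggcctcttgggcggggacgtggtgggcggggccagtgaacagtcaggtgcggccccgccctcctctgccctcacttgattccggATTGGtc
The letters CGCATGCG, the core of a palindrome bound by NRF1, stand once before *Nup62* and 2 times before *Xpo5*. They occur in 4 of 47 windows of 250 bases before the starts of members (*Nup62*, *Xpo5*, *Nup50* and *Nup107*), which is 8.51% beside 1.55% of all 32851 such windows, and *Nup50* and *Nup107* were not past the threshold in any comparison. CCAAT, in either direction, occurs in 44.7% of the members' windows and 33.8% of all, CCGGAAG of ETS factors in 19.1% and 6.91%, and the E-box CACGTG in 12.8% and 6.02%. The cyclic AMP response element TGACGTCA occurs in 4.26% and 1.55% and AAGATGGCG of YY1 in 4.26% and 0.606%. Both strands were searched, these motifs do not share letters with each other where they match in the sequences shown, and 40 of 51 members had a RefSeq entry, some with several starts whose windows can overlap. No factor was measured at these sites.

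Other genes of transport were read from lists of Ran cycle, mRNA export and lamina genes. The 8 tested genes of the Ran cycle list were *Ran*, *Rcc1*, *Rcc2*, *Rangap1*, *Ranbp2*, *Ranbp3*, *Nutf2* and *Ahctf1*. Of these, *Ranbp2* (-0.064) and *Ahctf1* (-0.22) encode pore proteins whose symbols fall outside the rule for members. All 8 were below 0 in Pdap1-deficient cells with LPS-IL-4 (median -0.29), beside 47.3% of all genes. The test was passed by 1 of them, beside 2.12% of all genes called lower and 2.79% called higher. This was *Rcc1*, the exchange factor that loads Ran with GTP, with 203, 211 and 217 CPM in controls and 162, 125 and 150.2 CPM in Pdap1-deficient mice (log2 fold change -0.54, SE 0.12, adjusted p = 0.0315). The groups did not overlap and mouse 2 was lowest. *Ran* had 521, 525 and 530.1 CPM and 444, 301 and 411 CPM (log2 fold change -0.45, SE 0.15, adjusted p = 0.0978). With LPS-BAFF-TGFβ, *Rcc1* had 153, 146 and 136 CPM in controls and 129.5, 124 and 137 CPM in Pdap1-deficient mice (log2 fold change -0.15, SE 0.10, adjusted p = 0.602), and *Ran* had 849, 434 and 355 CPM, highest in control mouse 1, and 382, 340.0 and 394 CPM (log2 fold change -0.54, SE 0.32, adjusted p = 0.560). Of 22 mRNA export genes, 19 were below 0 with LPS-IL-4 (median -0.18) and *Thoc3* of the THO complex passed, with 94.2, 98.6 and 100.1 CPM against 78.2, 59.3 and 72.9 CPM (log2 fold change -0.49, SE 0.12, adjusted p = 0.0497). Of 10 lamina genes, 7 were below 0 with a median of -0.067 and 0 passed. The shares of all genes given for the Ran cycle list apply to these lists too. *Thoc3* was only just under the threshold, and for the genes of these lists no alternative run is given. With LPS-BAFF-TGFβ 0 genes of these lists passed, beside 0.00710% of all genes called lower and 0.455% called higher. The medians there were -0.16 for 8 Ran cycle, -0.13 for 22 mRNA export and -0.051 for 9 lamina genes. Between stimulations in control cells, *Rcc1* fell (log2 fold change -0.54, SE 0.10, adjusted p = 0.00203) and *Rangap1* fell (log2 fold change -0.33, SE 0.10, adjusted p = 0.0383). Of the other lists, 1 mRNA export gene and 1 lamina gene were called lower there, beside 8.22% of all genes called lower and 9.93% called higher. In Pdap1-deficient cells the log2 fold changes of *Rcc1* and *Rangap1* were -0.16 and -0.15 and did not pass. There 1 lamina gene was called lower, beside 6.93% of all genes called lower and 6.64% called higher.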

How the data were processed

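RNA-seq libraries of 3 control and 3 Pdap1-deficient mice in 2 stimulations were analysed. The authors mapped reads to GRCm38 with STAR 2.6 after Trim Galore 0.6.1, counted them per gene with HTSeq 0.9.1 and deposited counts without normalization. The annotation release, strand setting and treatment of reads with several positions are not given in the sources used here. The labels name a stranded mRNA kit and the paper a stranded total RNA kit. The deposited normalized counts were not used.

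Symbols, positions and exon lengths came from GENCODE M21. Counts were tested in R 4.3.3 with the robust quasi-likelihood F test of edgeR 4.0.16, using its filterByExpr step, TMM scaling, Benjamini-Hochberg adjustment over all genes and a threshold of 0.05. Genotypes were compared within the 6 libraries of a stimulation, and stimulations and the genotype by stimulation term over 12 libraries in 4 groups. The SE of a log2 fold change is its size divided by the square root of F. The median biological coefficient of variation was 17.2%, 20.9% and 19.2% in the 3 fits. Alternatives were DESeq2 1.42.0, its size factors in edgeR, no filter, a minimum of 10 counts in all libraries, leaving out each mouse in turn, thinning to the smallest library, the replicate number as a block, an offset for length and GC content with and without the block, and another choice of libraries.

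The series description gives the cultures of a mouse the same number, so the mouse pairs the stimulations. Deviations of the paired libraries from their group means correlated, in the order of mouse number, at 0.58, 0.62 and 0.29 for Pdap1-deficient mice and at -0.18, 0.34 and -0.023 for controls. Counts were simulated with 200 genes changed by 2 on the log2 scale, more than any member tested changed in a main comparison. The test recovered 98.0% of them with LPS-IL-4 depths, 96.0% with LPS-BAFF-TGFβ depths and 86.5% for the genotype by stimulation term. This says nothing of smaller changes. Apart from the changed genes, all simulated libraries were drawn around the same gene proportions, so none stood apart as in the data. In the data, *Pdap1* was not called with LPS-BAFF-TGFβ at a log2 fold change of -2.33. Members named with values per mouse are those past the threshold and, in each group, those with the 2 smallest p-values between genotypes and the 2 largest differences between stimulations. Others are named by level, by count or, where said, by their values. The members and lists were chosen with earlier results of these data known. 1 of the B cell markers is not reported here.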

Additional observations from a re-analysis of the deposited data

How the results depend on the processing

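Between genotypes with LPS-IL-4, where 1 member was called, 7 were called with DESeq2 (beside 9.37% of all genes) and 7 without the filter (5.90%). The number was between 0 and 9 when each mouse was left out (0.440% to 11.4% of all genes). The replicate block, which here shares only a number between genotypes, gave 1 member with LPS-IL-4 (4.25% of all genes). It gave 0 with LPS-BAFF-TGFβ (0.341%) and 0 for the genotype by stimulation term (0%). Between stimulations in control cells, where 7 were called, the number was 2 without the filter (8.03% of all genes). Thinning all libraries to the smallest left 3 (16.6%), in 1 random draw on which this number depends. The number was 11 with the replicate block (21.6%), 12 with the offset for length and GC content (22.2%) and 22 with the offset and the block (27.5%). Without the libraries of control mouse 1 with LPS-BAFF-TGFβ and Pdap1-deficient mouse 2 with LPS-IL-4 it was 11 (25.8%), an alternative chosen after seeing the data. It was between 1 and 12 when each mouse was left out (9.41% to 21.7%). In Pdap1-deficient cells, where 2 were called, the number was 6 with the offset (16.5%) and 9 with the offset and the block (20.2%). With only the 6 libraries of the genotype it was 1 (11.5%), and without the pair of libraries named above 10 (20.2%). It was 2 with the replicate block (15.8%) and between 1 and 4 when each mouse was left out (6.38% to 14.5%). The cause of these changes was not tested. The genotype comparison with LPS-BAFF-TGFβ and the genotype by stimulation term had 0 members in each alternative run. The genes named by the fixed rule kept their direction in the comparison that named them, and of their alternatives 340 values stayed on their side of the threshold, 42 fell short of it and 22 came to pass it. Of the medians of member groups, 304 moved by less than the spread between mice and 4 by more, all of the latter without the named pair of libraries. Without the filter the median of all genes between genotypes with LPS-BAFF-TGFβ was -0.099, against 0.0066, and that of the members -0.12, against -0.057. Of the 6 members above 0 between genotypes with LPS-IL-4, *Kpna2*, *Ipo8*, *Tpr* and *Pom121* turned below 0 in at least 1 alternative, *Pom121* in 1 with -0.052.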
